A study of Mus musculus with 8 samples.

Results

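The genes of fatty acid uptake and mitochondrial beta-oxidation were followed in the left ventricle of mice kept on a normal or a low salt diet. The 30 genes were listed by name and role, and every non-control probe carrying one of these names on the array was read, which gave 30 of 30139 genes, 39 of 39429 probes and 57 of 43020 spots. The 8 hearts came from C57Bl/6j mice, an inbred laboratory strain, all of them male and 16 weeks old. For the last 8 weeks 4 mice had eaten a diet with 0.4% sodium (normal salt) and 4 a diet with 0.05% sodium (low salt). All mice were anaesthetised with pentobarbital and bled before the heart was taken. Septum, free wall and apex of the ventricle were homogenised together, so each value is a mean over all cell types of the tissue, and fewer cells of a type cannot be told apart from less RNA per cell. Each of the 4 arrays carried 2 mice of the same diet, the odd-numbered mouse in Cy3 (green) and the even-numbered mouse in Cy5 (red), so diet differed only between arrays, and the position on the slide and the diet group cannot be told apart.

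Long-chain fatty acids are the main fuel of the adult heart. They reach the myocyte from lipoproteins, which lipoprotein lipase cleaves at the capillary wall, or from albumin. They then cross the membrane with the help of CD36 and fatty acid transport proteins, and are bound in the cytosol by the heart fatty acid binding protein. After activation to acyl-CoA the chain passes into mitochondria as a carnitine ester, made by carnitine palmitoyltransferase 1 on the outer membrane and undone by carnitine palmitoyltransferase 2 on the inner one. Each turn of beta-oxidation inside then removes an acetyl-CoA and hands electrons to the respiratory chain.

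All 57 spots of the 30 genes were well above background in all 8 samples, by the scanner software's own call, and none was saturated. Over all non-control spots the share well above background was 53.0% to 66.3% per sample. The 10 cardiomyocyte markers listed were all measured, with a mean log2 intensity of 16.61 to 17.22 in the normal salt mice and 16.48 to 17.02 in the low salt mice. Marker ranges here and below pool both dyes, and for these markers the Cy5 mice read higher. With the dye mean removed, the cardiomyocyte markers lay at -0.052 to 0.15 in the normal salt mice and at -0.19 to 0.087 in the low salt mice. Of 8 adipocyte markers 5 were measured and of 8 skeletal muscle markers 2. The 8 atrial markers measured of 9 varied most, from 10.25 to 12.08 in the normal salt mice, where mice 3 and 4 were highest, and from 9.94 to 11.27 in the low salt mice. The 8 macrophage markers lay at 9.65 to 9.89 on normal salt and at 9.94 to 10.19 on low salt, without overlap. The part of these other cells in the values of the 30 genes was not tested.

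The results turned on 7 probes of 4 genes, and the first 30 of the 60 bases of each are shown because 2 probes of 1 gene did not always read alike. They are given 5′ to 3′ as in the array design, with no part set in capitals.
Cpt1b, first probe: ttggagagcgctgtccaacctctcatgtgc
Cpt1b, second probe: tgctcctctagggcccccgctggaggtggg
Cpt2, first probe: gggttggaaagctaactcagctgtatttat
Cpt2, second probe: attgtgaatccctcagaaatccaggcacat
Ucp2: ctcaaaagagccctaatggctgcctaccaa
Ucp3, first probe: aagaaatgccattgtcaactgtgctgagat
Ucp3, second probe: caatgttttaggagagattctgtccagaga
The first probe is in each case the brighter one, which stood for the gene. On the mm9 build of the array design the Cpt1b probes lie on the minus strand at chr15:89246836-89246895 and chr15:89247106-89247165, and the Cpt2 probes on the minus strand at chr4:107576591-107576650 and chr4:107580325-107580384. The Ucp2 probe lies on the plus strand at chr7:107647809-107647868 and the Ucp3 probes on the plus strand at chr7:107630399-107630458 and chr7:107634291-107634350. The start sites of the 2 probes were 270 bases apart for Cpt1b, 3734 for Cpt2 and 3892 for Ucp3. Which exon each probe meets was not analysed here.

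None of the 29 genes that could be tested differed between the diets at an adjusted p of 0.05 in limma, where the lowest adjusted p was 0.346. The same fit called 145 of 18093 genes, or 0.801%, so the absence of a call among 29 genes is near what that share gives. An unadjusted p under 0.05 was found for 3 of the 29 genes, as for 11.1% of all genes. Of the 38 probes tested one by one 0 passed the adjusted threshold, against 0.823% of 22977 probes. An unadjusted p under 0.05 was found for 5 of the 38, as for 11.2% of all probes. Hadh was the gene left out of the test, because the scanner software flagged its only spot in low salt mouse 2. Leaving out any 1 mouse left 52 to 122 genes called over the whole array and 0 among the fatty acid genes. With the mouse number of the labels as a replicate block the array-wide count was 721, again with 0 of the 29 genes.

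Low salt minus normal salt was below 0 in 21 of the 29 genes and above 0 in 8, where 47.4% of all genes tested were below 0. The median difference was -0.12 on the log2 scale, against 0.013 over all genes, and in 24 genes the difference was smaller than 0.3 in size. The 3 genes with an unadjusted p under 0.05, Cpt1b, Cpt2 and Ucp2, were all lower on low salt; in that direction alone the array-wide share was 4.28%, a direction taken after the 3 genes were seen. In Cpt1b, Acads and Ucp2 every low salt mouse lay below every normal salt mouse; this held for 4.84% of all genes. Within each dye, both low salt mice lay below both normal salt mice in 9 of the 29 genes, against 8.42% of all genes: Cpt1b, Cpt2, Acadvl, Acads, Hadhb, Acaa2, Eci2, Etfa and Ucp2. The reverse, every low salt mouse above every normal salt mouse, held for 0 of the 29, against 7.96% of all genes, and within each dye it also held for 0, against 12.2%. The 10 cardiomyocyte markers had a median difference of the same size, -0.12, with 8 of 10 below 0. The 10 endothelial markers had one of -0.37, also with 8 of 10 below 0. In the other marker lists the median was -0.54 for atrial, -0.22 for red cell and -0.11 for smooth muscle and pericyte markers. It was -0.010 for fibroblast, 0.10 for skeletal muscle, 0.17 for adipocyte and 0.26 for macrophage markers. The part of any of these cells in the values of the fatty acid genes was not tested. These counts are a description: the genes were read in the same 8 hearts and are not independent of each other. The standard error of a difference had a median of 0.15 among the 29 genes, and the 95% intervals of 25 of them held both 0 and a difference of 0.3 in size.

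**Figure D1:**
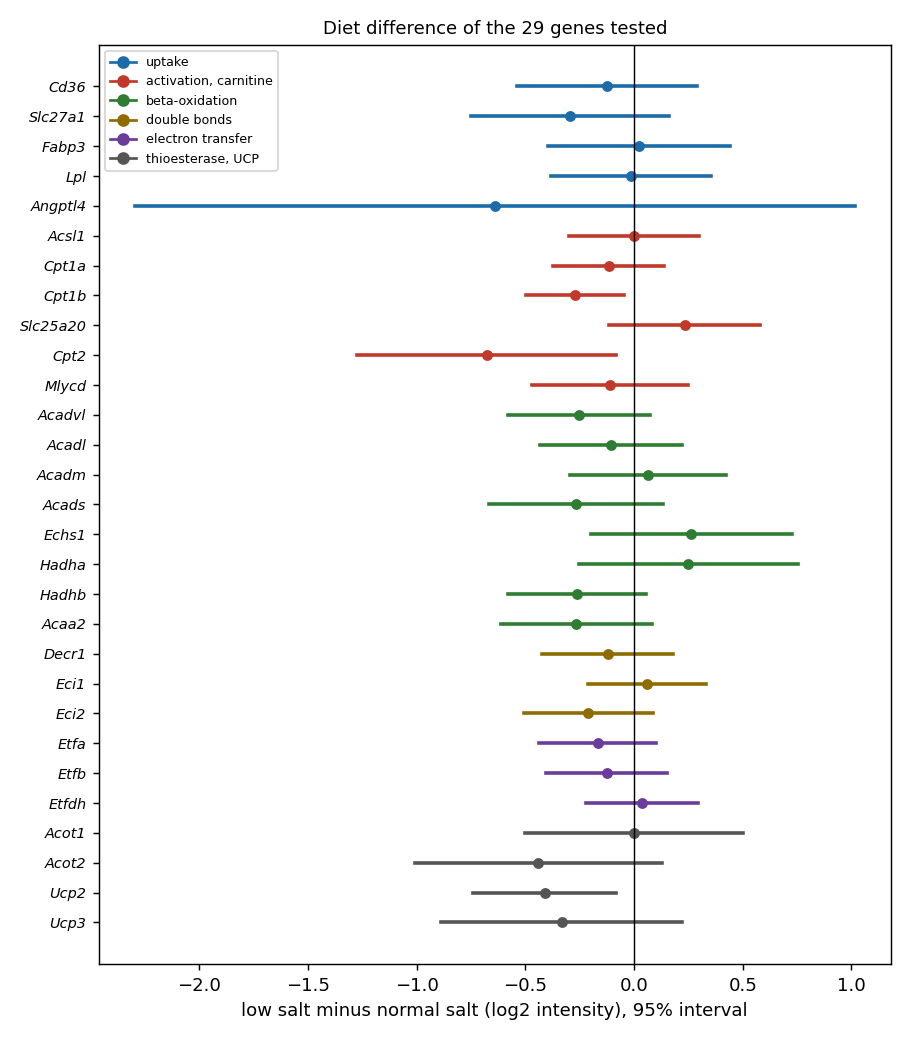
Difference in log2 intensity, low salt minus normal salt (x axis), for the 29 genes tested, ordered and coloured by role (points: difference from the limma fit; lines: its 95% interval; 4 mice per diet). 21 points lie below 0, the intervals of Cpt1b, Cpt2 and Ucp2 leave out 0, and that of Angptl4 is the widest.

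Among the genes of uptake at the cell surface, 0 of 5 passed the test and 4 had a difference below 0, with a median of -0.12. Slc27a1, a fatty acid transport protein, had the smallest p of this group. Its log2 intensity was 11.41, 11.75, 11.53 and 11.45 in normal salt mice 1 to 4 and 10.97, 11.59, 11.19 and 11.22 in low salt mice 1 to 4. Low salt mouse 2 lay above 3 of the normal salt mice, so the groups overlapped. The difference was -0.29 ± 0.20 (standard error, here and below; adjusted p = 0.598). Cd36, the main surface transporter, differed by -0.12 ± 0.18. Lpl, lipoprotein lipase itself, differed by -0.014 ± 0.16 on its first probe and by -0.26 ± 0.16 on its second. Fabp3, the heart fatty acid binding protein, differed by 0.024 ± 0.18 and by -0.081 ± 0.16 on its 2 probes.

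Angptl4, a secreted inhibitor of lipoprotein lipase that fasting and fatty acids are known to induce, was the most variable of the 29 genes, and its values are given because of that spread. In normal salt mice 1 to 4 it read 11.01, 11.57, 10.83 and 10.37, and in low salt mice 1 to 4 it read 9.76, 11.59, 10.34 and 9.51. The highest of all 8 values was that of low salt mouse 2 and the lowest that of low salt mouse 4. After the dye mean was removed the values spanned 2.08, wider than in 98.8% of all genes. The difference was -0.64 ± 0.72, with a 95% interval of -2.29 to 1.01, so these 4 mice per diet fix neither its size nor its direction. The 10 endothelial markers, from the cells on whose surface lipoprotein lipase acts, had a mean log2 intensity of 11.19 to 11.62 on normal salt and of 10.93 to 11.21 on low salt. Their part in the values of the uptake genes was not tested.

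In activation and the carnitine shuttle 0 of 6 genes passed and 5 had a difference below 0, with a median of -0.11. Cpt1b, the muscle form of carnitine palmitoyltransferase 1 and the regulated entry step of the pathway in heart, had the smallest standard error of the 29 genes. Its first probe read 14.04, 14.19, 13.98 and 14.04 in normal salt mice 1 to 4 and 13.85, 13.82, 13.73 and 13.76 in low salt mice 1 to 4. Every low salt mouse lay below every normal salt mouse. The difference was -0.27 ± 0.10, a 1.21-fold lower signal (95% interval of the log2 difference -0.50 to -0.048, adjusted p = 0.364).

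The second Cpt1b probe read 13.48, 13.51, 13.38 and 13.25 on normal salt and 13.11, 13.10, 13.13 and 13.12 on low salt. Again the groups did not overlap, and the low salt mice hardly differed from each other (SD 0.014). Its difference was -0.29 ± 0.10 (probe-level adjusted p = 0.344). Both probes thus gave nearly the same size, in Cy3 and in Cy5: the first differed by -0.22 in the Cy3 mice and by -0.32 in the Cy5 mice, the second by -0.31 and by -0.27. Both probes read the same RNA samples, and the Cy3 and Cy5 mice of a diet shared arrays, so these readings are not independent. Over the 27 other settings tried the first probe's difference ran from -0.32 to -0.22, and its adjusted p from 0.0778 to 0.9998.

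Cpt2, which remakes acyl-CoA inside mitochondria, behaved otherwise. Its first probe read 14.21, 14.21, 14.19 and 13.97 in normal salt mice 1 to 4 and 13.02, 12.97, 14.08 and 13.81 in low salt mice 1 to 4. Both mice of one low salt array were low. Of the other array, mouse 3 lay within the normal salt range and mouse 4 below it. Both were closer to the normal salt mice than to low salt mice 1 and 2, but below the normal salt mice of their own dye. The low salt arrays differed by -0.95, mice 1 and 2 minus mice 3 and 4. The difference between diets was -0.68 ± 0.26 (1.60-fold, adjusted p = 0.394). Cpt2 was also the 1 gene at least 1.5-fold lower in each dye taken alone, which 1.32% of all genes were. That count was 0 without low salt mouse 1 or with low salt mice 1 and 2 (an array) left out. It was 2 without normal salt mouse 4, and also when either normal salt mice 1 and 2 or low salt mice 3 and 4 were left out. Leaving out normal salt mice 3 and 4 gave 3.

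The second Cpt2 probe showed no such step. It read 8.88, 9.30, 9.16 and 9.49 on normal salt and 8.79, 9.78, 9.38 and 9.47 on low salt. The groups overlapped fully, and the difference was 0.15 ± 0.24 with a 95% interval of -0.40 to 0.69. The mean of both probes differed by -0.27, and the first probe by -0.37 in the scanner's processed signal. With low salt mice 1 and 2 left out the first probe differed by -0.20.

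**Figure D2:**
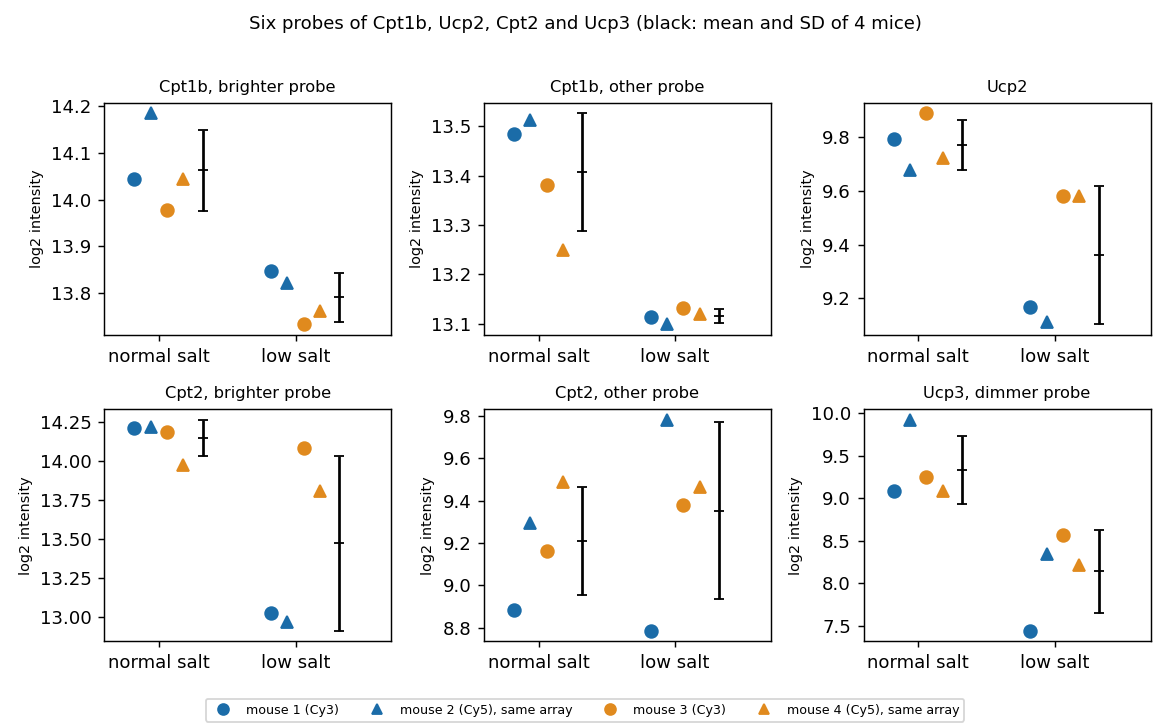
Log2 intensity (y axis, a separate range in each panel) of 6 probes in the 4 normal salt and 4 low salt mice (circles Cy3, triangles Cy5; mice 1 and 2 in blue shared an array, as did mice 3 and 4 in orange; black bars show mean and SD of 4 mice). Both Cpt1b probes, Ucp2 and the second Ucp3 probe separate the diets. The first Cpt2 probe is far lower in low salt mice 1 and 2 than in the other mice, and the second Cpt2 probe overlaps.

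The other genes of this step lay closer to 0. Acsl1, the main acyl-CoA synthetase of heart, differed by -0.0011 ± 0.13 on its first probe and by -0.27 ± 0.16 on its second. Cpt1a, the liver form of carnitine palmitoyltransferase 1, differed by -0.12 ± 0.11 and by -0.16 ± 0.14 on its 2 probes. Slc25a20, which exchanges acylcarnitine for carnitine across the inner membrane, was the one gene of the group with a difference above 0, at 0.23 ± 0.15 (adjusted p = 0.581). Mlycd, which removes the malonyl-CoA that inhibits carnitine palmitoyltransferase 1, differed by -0.11 ± 0.16.

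The enzymes of the beta-oxidation spiral were read for 8 of 9 genes in the fit, with 0 passing, 5 below 0 and a median of -0.18. The first step belongs to acyl-CoA dehydrogenases of different chain length. Acadvl, for very long chains, differed by -0.25 ± 0.14, Acadl, for long chains, by -0.11 ± 0.14, Acadm, for medium chains, by 0.065 ± 0.16 and Acads, for short chains, by -0.27 ± 0.18. Acads read 11.82, 11.92, 11.83 and 11.85 on normal salt and 11.38, 11.75, 11.75 and 11.46 on low salt. The highest low salt mouse was below the lowest normal salt mouse by less than the spread within the low salt group (SD 0.19), and the adjusted p was 0.582.

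Hadhb, the thiolase subunit of the mitochondrial trifunctional protein, had the smallest p of these 8 genes. It read 16.60, 17.05, 16.72 and 16.94 on normal salt and 16.30, 16.79, 16.55 and 16.63 on low salt. The groups overlapped only across dyes. The difference was -0.26 ± 0.14 (adjusted p = 0.513). Hadha, the partner subunit, gave 0.25 ± 0.22 in the other direction. Its normal salt mice read 13.86 and 13.84 on one array and 13.20 and 13.10 on the other, and its low salt mice 13.63, 13.89, 13.83 and 13.64. So the normal salt arrays lay further apart, at 0.70, than the diets did, and with normal salt mice 3 and 4 left out the difference was -0.10.

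Echs1, the short-chain enoyl-CoA hydratase, showed the same kind of step the other way round. It read 14.40 and 14.38 in normal salt mice 1 and 2, but 15.12 and 15.07 in normal salt mice 3 and 4, and 14.88, 15.05, 15.09 and 15.00 on low salt. The low salt mice lay near the second normal salt array, and the difference was 0.26 ± 0.20, but -0.090 with normal salt mice 1 and 2 left out. Differences between the arrays of 1 diet above 0.5 in size were seen in 4 genes on normal salt (Angptl4, Echs1, Hadha and Acot2) and in 2 on low salt (Angptl4 and Cpt2). In the middle gene the array difference was 0.10 on normal salt and 0.082 on low salt, against 0.12 and 0.15 over all genes.

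Hadh, the L-3-hydroxyacyl-CoA dehydrogenase of the third step, has 7 usable values. It read 15.44, 15.45, 15.45 and 15.31 on normal salt and 14.81, 15.20 and 15.13 in low salt mice 1, 3 and 4. These low salt mice all lay below the normal salt mice. A fit over 23143 probes that dropped the flagged spot gave -0.41 ± 0.14 (adjusted p = 0.355), with an unadjusted p under 0.05 and so lower than that of Hadhb. With the flagged spot kept, low salt mouse 2 read 15.17 and the difference was -0.33 ± 0.16 (adjusted p = 0.489).

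Acaa2, a thiolase of the last step of the spiral, and Cpt1a were each printed as 10 spots of the same probe, which shows how far a single spot can be trusted. The mean of the Acaa2 spots read 16.95, 17.42, 17.18 and 17.28 on normal salt and 16.64, 17.16, 16.91 and 17.05 on low salt, a difference of -0.27 ± 0.15 (adjusted p = 0.541). All 10 spots had a difference below 0, from -0.55 to -0.14 (SD over spots 0.12). In normal salt mouse 3 only 9 Acaa2 spots were used, since 1 was flagged. For Cpt1a 9 of 10 spots were below 0, with a range of -0.52 to 0.013. The spots share the same 8 RNA samples, so they speak for the reading of a sample and not for more mice.

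Each spot's own brightness and each array's level were removed as medians (median polish). Most spots then followed the others of their probe closely, with a median departure of 0.035 for Acaa2 and 0.021 for Cpt1a. Departures over 0.25 were found in 3 of 40 spot and array pairs for Acaa2 and in 1 of 40 for Cpt1a. On the array shared by low salt mice 1 and 2, a single Acaa2 spot lay low in both mice, by -0.48 and -0.60, while the 9 other spots of that array stayed within 0.25. Another Acaa2 spot departed on both normal salt arrays, by -0.33 on that of mice 1 and 2 and by 0.54 on that of mice 3 and 4. Without the spots concerned the mean difference was -0.21 over 8 Acaa2 spots and -0.072 over 9 Cpt1a spots. Of the 30 genes, 28 have only probes with 1 spot each.

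**Figure D3:**
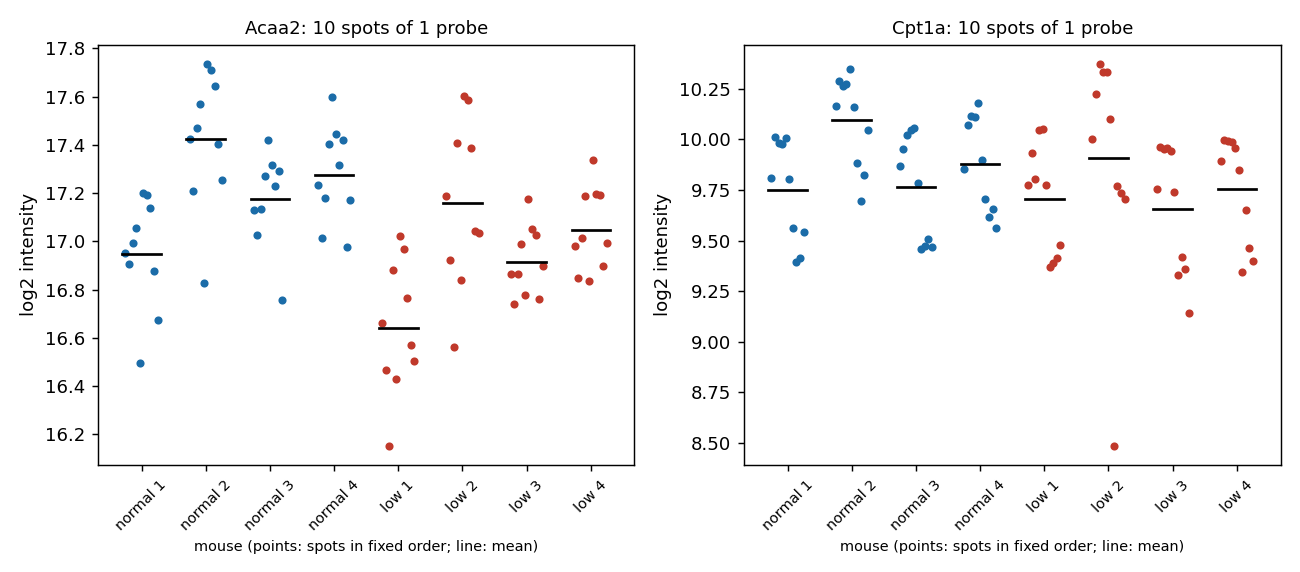
Log2 intensity (y axis) of the 10 spots of the Acaa2 probe and of the Cpt1a probe in each of the 8 mice (x axis; points in the same order of spots in every mouse; 9 Acaa2 spots in normal salt mouse 3; blue normal salt, red low salt; black lines mark the mean over spots). For Acaa2 the low salt means, at 16.64 to 17.16, overlap with the normal salt means at 16.95 to 17.42, and single spots such as one of Cpt1a in low salt mouse 2, at 8.49, stand away from the rest.

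Double bonds of unsaturated fatty acids are moved or reduced by Decr1, a dienoyl-CoA reductase, and by the isomerases Eci1 and Eci2. Of these 3 genes 0 passed, and 2 had a difference below 0. Eci2 had the smallest p, with 14.25, 14.48, 14.41 and 14.36 on normal salt and 14.17, 14.35, 14.10 and 14.04 on low salt. Only low salt mouse 2 lay inside the normal salt range, and not within its own dye. Its difference was -0.21 ± 0.13 (adjusted p = 0.566). Decr1 differed by -0.12 ± 0.13 and by -0.13 ± 0.15 on its 2 probes, and Eci1 by 0.060 ± 0.12.

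The electron transfer flavoprotein, made of the subunits Etfa and Etfb, takes electrons from the acyl-CoA dehydrogenases and passes them to Etfdh, its oxidoreductase in the inner membrane. Of these 3 genes 0 passed. Etfa read 16.12, 16.31, 16.29 and 16.37 on normal salt and 15.96, 16.27, 16.10 and 16.09 on low salt, so the groups overlapped across dyes but not within them. Its difference was -0.17 ± 0.12 (adjusted p = 0.610), and 0.053 ± 0.21 on its second probe. Etfb differed by -0.13 ± 0.12. Etfdh differed by 0.037 ± 0.11, and its 8 values, after the dye mean was removed, spanned 0.18, less than in all but 4.83% of genes.

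Uncoupling proteins sit in the inner mitochondrial membrane; Ucp3 is abundant in muscle and rises with fatty acid supply, and Ucp2 is found in many tissues. Of the 4 genes of this last group, 2 thioesterases among them, 0 passed and 3 had a difference below 0, with a median of -0.37. Ucp2 read 9.80, 9.68, 9.89 and 9.72 on normal salt and 9.17, 9.11, 9.58 and 9.58 on low salt. Every low salt mouse was below every normal salt mouse, and the lower ones were low salt mice 1 and 2, read on one array. The difference was -0.41 ± 0.14 (1.33-fold, 95% interval -0.74 to -0.082, adjusted p = 0.346).

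Ucp3 was read by 2 probes of different size of difference. Its first probe read 9.45, 9.57, 9.44 and 9.54 on normal salt and 8.85, 9.28, 9.52 and 9.01 on low salt, with a difference of -0.33 ± 0.24 (adjusted p = 0.620). Low salt mouse 3 lay among the normal salt mice. The second probe, singled out after its values were seen, read 9.09, 9.92, 9.25 and 9.09 on normal salt and 7.45, 8.34, 8.57 and 8.22 on low salt. The highest low salt mouse lay below the lowest normal salt mouse.

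That second Ucp3 probe differed by -1.19 ± 0.40, a 2.28-fold lower signal, with a 95% interval of -2.10 to -0.28 and a probe-level adjusted p of 0.317 in limma. In Cy3 alone the difference was -1.16 and in Cy5 alone -1.22. With the mouse number as a replicate block and no term for the array, its adjusted p was 0.0305, the 1 call among the 38 probes, where the same fit called 4.00% of all probes. Over the 27 other settings its adjusted p ran from 0.0305 to 1 and its difference from -1.53 to -0.94.

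Calls among the 29 genes appeared in 1 other setting. With low salt mice 3 and 4 (an array) left out, Cpt2 differed by -1.15 ± 0.11 (adjusted p = 0.0125) and Ucp2 by -0.63 ± 0.089 (adjusted p = 0.0227), where 6.03% of all genes were called. Low salt then rests on a single array, and these values cannot be told apart from a property of that array. With low salt mice 1 and 2 left out instead, Ucp2 differed by -0.19, and over the 27 other settings its difference ran from -0.63 to -0.19. Over these settings the adjusted p ran from 0.0125 to 0.9998 for Cpt2 and from 0.0227 to 0.9998 for Ucp2.

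The thioesterases Acot1, in the cytosol, and Acot2, in mitochondria, cleave acyl-CoA to free fatty acid. They are near-identical neighbours on chromosome 12, so a probe of one may also bind the other and their values are uncertain. Acot1 differed by 0.0018 ± 0.22 and Acot2 by -0.44 ± 0.25 (adjusted p = 0.536). Acot2 read 9.19 and 9.54 on one normal salt array and 9.88 and 10.03 on the other, against 8.82, 9.32, 9.46 and 9.27 on low salt. The difference of -0.59 between the normal salt arrays was larger than that between the diets.

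Mice of 1 diet differed among themselves in the pathway as a whole. Set against the mean of the 4 mice in the same dye, the middle one of the 29 genes lay at 0.028, 0.17, 0.14 and 0.048 in normal salt mice 1 to 4, and at -0.10, 0.048, 0.014 and -0.18 in low salt mice 1 to 4. The diets overlapped, since low salt mouse 2 was level with normal salt mouse 4. Taken by mouse number, the low salt mouse lay lower for each number, with differences of -0.13, -0.12, -0.13 and -0.23 for numbers 1 to 4. Numbers 1 and 2 shared an array within each diet, as did numbers 3 and 4. These differences are therefore not independent, and the labels do not say that the numbers pair mice. Low salt mouse 4 had 24 of 29 genes below that mean and low salt mouse 1 had 18, while low salt mice 2 and 3 had 10 and 13. The normal salt mice had 10, 4, 8 and 12. Over all genes the share below that mean was 48.9%, 50.6%, 51.0% and 54.4% in normal salt mice 1 to 4. In low salt mice 1 to 4 it was 41.4%, 40.2%, 54.7% and 56.1%, so it also differed between the low salt arrays. The SD of this middle value between mice of 1 diet, taken without the numbers, was 0.090. Leaving out 1 mouse at a time, the median difference of the genes tested ran from -0.20 to -0.083.

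**Figure D4:**
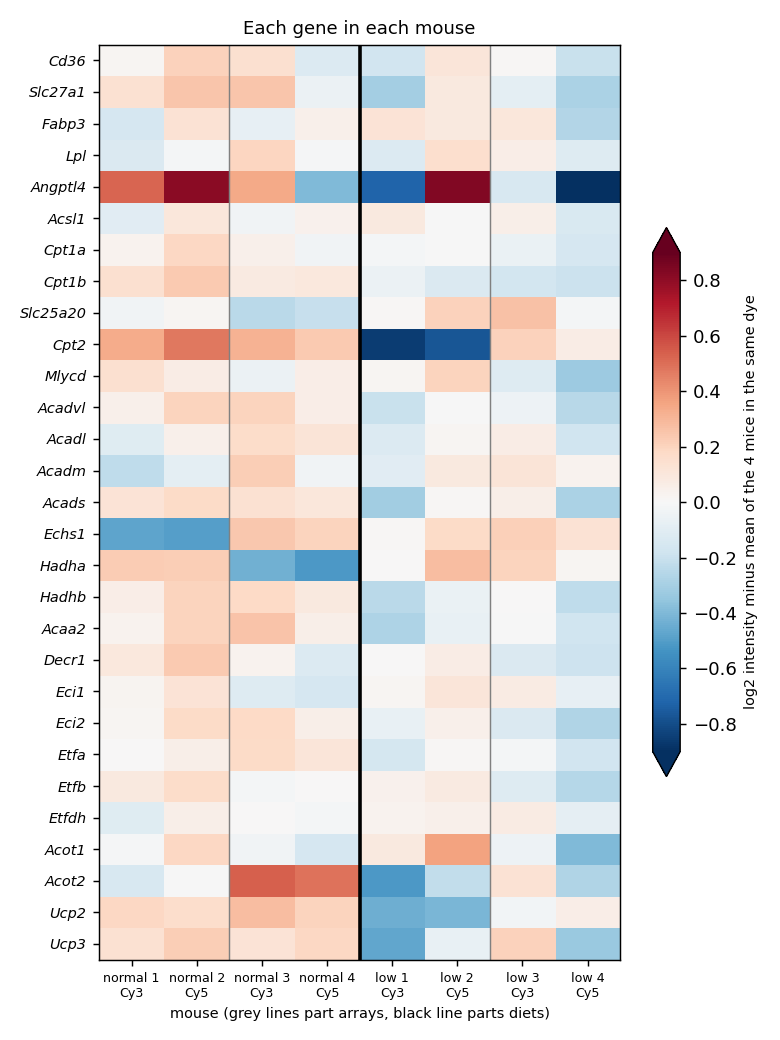
Log2 intensity of the 29 genes (rows) in the 8 mice (columns), as the departure from the mean of the 4 mice in the same dye (colour; red above, blue below; values beyond 0.9 in size take the end colour). Low salt mouse 4 is blue in most rows (24 of 29 genes, where 56.1% of all genes lay below that mean). Cpt2 lies below the mean of its dye in low salt mice 1 and 2 only, and Echs1, Hadha and Acot2 step between the normal salt arrays.

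The genes were also read where the signal was even over the slide. The local difference between diets, taken as a median over 21 rows and 21 columns of spots around each probe, lay between -0.13 and 0.094 for the 29 genes, and 0 of them exceeded 0.2 in size, as 3.22% of all genes did. The most negative values were those of Acot2 and the first Ucp3 probe, at -0.13 and -0.11. For the second Ucp3 probe it was -0.028, for the first Cpt1b probe 0.0026 and for Ucp2 0.0061.

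Further genes of fatty acid metabolism also gave 0 calls in each of 4 lists. Of 20 other genes of uptake and activation 18 were tested, with a median difference of -0.016. The smallest p values belonged to Fabp5 and Fabp4, binding proteins known from endothelial cells and adipocytes, at -0.60 ± 0.17 (adjusted p = 0.236) and -0.89 ± 0.36 (adjusted p = 0.417). Of 20 other genes of mitochondrial oxidation 19 were tested, with a median of 0.070. Nnt, the proton-driven transhydrogenase of the inner membrane, in which C57BL/6J mice are known to carry a deletion, read 12.90, 12.92, 13.73 and 13.47 on normal salt and 14.20, 14.28, 14.21 and 14.19 on low salt. Every low salt mouse lay above every normal salt mouse, by 0.96 ± 0.21 (adjusted p = 0.102), and the local difference around its probe was 0.17. Pccb, of propionyl-CoA carboxylase, differed by 0.35 ± 0.14 (adjusted p = 0.415).

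Of 20 peroxisomal genes 17 were tested, with a median of -0.062. Amacr, a racemase of branched-chain acyl-CoA, differed by 0.28 ± 0.12 (adjusted p = 0.445). Of 15 genes that respond to fatty acids or govern the pathway 12 were tested, with a median of 0.023. The lipid droplet proteins Plin2 and Plin5 had the smallest p values there and lay on opposite sides of 0, at -0.38 ± 0.18 and 0.49 ± 0.25 (adjusted p = 0.472 and 0.506). Pdk4, which turns the heart from glucose to fatty acids, differed by -0.62 ± 0.47 and was named for this role.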

How the data were processed

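The deposited scanner tables hold, per the file headers, Cy3 and Cy5 intensity for every spot and its surrounding background, read with Agilent Feature Extraction 11.5.1.1; both tables of an array are identical copies. No normalization had been applied to the mean signals used here. Signals were background-corrected (normexp, offset 50), normalised by loess within arrays (span 0.3) and Aquantile between them, and put on a log2 scale in limma 3.58.1 with statmod 1.5.0 under R 4.3.3. Where a local background was flagged, the channel's median background replaced it. Flagged and control spots were left out and spots of 1 probe averaged.

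Tested probes had a value in all 8 samples and were called well above background in 4 or more; a gene was read from its brightest probe. The model held diet and dye, with the array as a random block (correlation 0.562 between the mice of an array), empirical Bayes variances and p-values adjusted by Benjamini-Hochberg over 18093 genes; tests were two-sided at 0.05. On simulated data the fit recovered planted differences and called somewhat more false genes than its nominal rate. It estimated the array correlation below the planted one. The members and gene lists were chosen with earlier results of these data known. Values were given in every sample for genes with an unadjusted p under 0.05 or the smallest p of their role, and for Cpt1b and Cpt2; Angptl4, Acads, Hadha, Hadh, Echs1, Acaa2, Acot2 and Ucp3 were chosen after seeing their values, as were Nnt and the count of genes separated within each dye. Of other lists, the 2 genes with the smallest p were named, Pdk4 in addition; 1 gene that this rule names is not reported here.

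Mice with the same number shared a dye, and their departures from the diet mean correlated by 0.304, 0.143, 0.163 and 0.192 for numbers 1 to 4. All exceed 0.1, so the number was also fitted as a replicate block in an alternative setting. The main fit, which gave the differences and standard errors above, held no term for the number. The choice of this block comes from the data, as the labels do not say what a number marks. With the diet and dye mean removed, the correlations were 0.208 for numbers 1 and 3 and 0.105 for numbers 2 and 4. They come in equal pairs because mice 1 and 3 of a diet, like 2 and 4, mirror each other around their common mean. The series-wide table of deposited values was not used, since its rows could not be matched to probes. Precision is limited by there being 4 arrays.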

Additional observations from a re-analysis of the deposited data

Results flagged for a closer look

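Among 76 groups of 4 mice (38 probes in 2 diets), 3 held a mouse far from the other 3 by Dixon's criterion, which chance gives in about 1 of 20 groups. The second Cpt1a probe had one in each diet: normal salt mouse 1 read 8.1807, against 8.30 to 8.32 in the others, and low salt mouse 2 read 8.3712, against 8.01 to 8.07 in the others. The first Cpt2 probe read 13.972 in normal salt mouse 4, against 14.19 to 14.21 in the other normal salt mice.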

How the results depend on the processing

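Keeping flagged spots, 1 of the 27 alternatives, was chosen after seeing the data. Under the 27 alternatives, 18 of the 29 genes kept the sign of their difference throughout. The 9 genes separated within each dye were among them. Their separation largely fixes that sign when a dye, a mouse or an array is left out, so it is no further support. The other 11 (Fabp3, Lpl, Acsl1, Mlycd, Acadm, Echs1, Hadha, Decr1, Eci1, Etfdh and Acot1) had the other sign under at least 1 alternative. The number of genes below 0 ran from 18 to 24, and the share of all genes below 0 from 42.9% to 52.9%. The 18 came with low salt mice 3 and 4 left out, where that share was 42.9%. The 24 came without normal salt mouse 1 (47.3%), without low salt mouse 3 (46.7%) and without low salt mice 1 and 2 (52.9%, 30 genes tested). The cause of the shifts below was not tested. The median difference stayed between -0.21 and -0.083. The count of genes past the threshold stayed at 0 except with low salt mice 3 and 4 (an array) left out, where 2 genes and 2 probes passed. The replicate block, which has no array term, gave 1 probe (Ucp3) and 721 genes over the whole array, and changed no other call among the members. The count of genes at least 1.5-fold apart in both dyes, 1 in the report, was 0 with the scanner's processed signal, ran from 0 to 2 with 1 mouse left out, and was 2, 3, 0 and 2 without the arrays normal salt 1 and 2, normal salt 3 and 4, low salt 1 and 2, and low salt 3 and 4. The array-wide count of 145 genes was 36 with the processed signal, 85 with the local trend subtracted, 23 over even parts only and 628 with no random array block. It was 0 with no normalization between arrays, in Cy3 alone, in Cy5 alone and with each array averaged to 1 value, where limma gave 776, 1850, 1255 and 1560 genes with an unadjusted p under 0.05. It ran from 52 to 122 with 1 mouse left out, and was 265, 69 and 1092 without the arrays normal salt 1 and 2, low salt 1 and 2, and low salt 3 and 4. With 2 arrays per diet, differences below about 0.3 were within the error for most of the genes.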
